A study of Mus musculus with 16 samples.

Results

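Of the 47517 rows in the count files, 5 are described here as a group drawn around noncanonical NF-kB signalling. They are the rows named Map3k14, Nfkb2 and Relb, after the kinase and the transcription factor pair of that pathway, and the rows named Psd and Gm16175. Psd and Gm16175 lie on the DNA strand opposite Nfkb2 and Bcl3, and were chosen by that gene opposite and by their measured counts, which were higher in NT3 limbs. Their differences between groups are therefore given as descriptions, without a test. The tissue was tibial cortical bone of 8 males, 16 weeks old, of which 4 were labelled NT3-Cre+ (NT3) and 4 Ctrl. In each mouse the right tibia was loaded and the left was not, giving 4 groups of 4 libraries: NT3 loaded, NT3 non-loaded, Ctrl loaded and Ctrl non-loaded. The title of the study states that NF-kB inducing kinase was activated conditionally in the osteolineage, the bone-forming cells and their precursors. Which promoter drives Cre, what the NT3 allele consists of and what genotype Ctrl mice have was not given in the sources used here. Loading was axial compression on 9 days with 1200 cycles a day, at a peak force of 10.0 N in NT3 and 8.7 N in Ctrl to reach -2000 microstrain in both, and collection followed 4 hours after the final bout.

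In the noncanonical pathway, NF-kB inducing kinase (NIK, the product of Map3k14) is kept scarce by a complex of TRAF and cIAP proteins that marks it for degradation. When receptors of the TNF family such as the lymphotoxin beta receptor, CD40, the BAFF receptor or RANK are engaged, NIK accumulates and, through IKKalpha, has the p100 product of Nfkb2 processed to p52. The p52 protein pairs with RelB in the nucleus. Nfkb2 and Relb are themselves known NF-kB targets, and BCL3 is an atypical IkB protein that works in the nucleus with p50 and p52. In bone the pathway is best known in osteoclast precursors downstream of RANK. NIK is controlled largely at the level of its protein, which RNA counts do not measure. Psd encodes an exchange factor for the small GTPase ARF6 that is known mainly from brain. Gm16175 is annotated as an antisense RNA.

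On GRCm38, with the GENCODE M21 annotation, Nfkb2 runs rightward at chr19:46304320-46312385 and Psd runs leftward at chr19:46312087-46327156. The genes meet tail to tail, and 299 bases at chr19:46312087-46312385 belong to the 3′ UTR of both. Of 8 annotated Nfkb2 transcripts, 2 end inside the Psd gene, 1 of them by at least 20 bases. At its other end Nfkb2 shares 531 bases with AC114539.1, a long noncoding RNA on the opposite strand. The M21 exons cover 7636 bases for Psd and 4584 for Nfkb2, against row lengths of 3903 and 3289 in the count files. The counted gene models therefore differ from M21, and whether the 299 shared bases lie in either row is not known. They are at most a small part of the Psd row. Bcl3 runs leftward at chr7:19808462-19822770, and Gm16175, with 2 exons on the other strand, lies inside it at chr7:19809609-19811872. The sources used here do not say whether counting took account of strand, so the fragments of a row cannot be told apart from those of the gene opposite. The files give 1 count per row, so the place of its fragments within the row is not known.

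**Figure D1:**
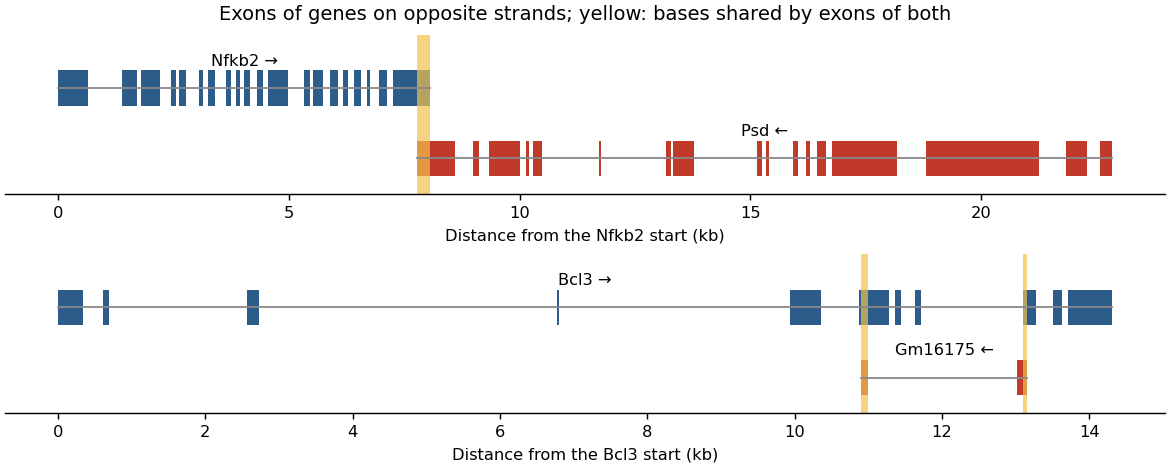
Exon maps of Nfkb2 with Psd and of Bcl3 with Gm16175, on a horizontal axis of distance in kb from the start of Nfkb2 or Bcl3, with blue boxes for exons of the NF-kB gene, red boxes for exons of the gene on the other strand and arrows for the direction of transcription. Yellow marks the bases held by exons of both genes: 299 bases at the shared end of Nfkb2 and Psd, and 161 bases in 2 places for Bcl3 and Gm16175.

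The Gm16175 transcript is short enough to print whole, and it shows how much of that row is also Bcl3 exon on the other strand. Its 248 bases, from GENCODE M21, are written 5′ to 3′ on the plus strand. The 161 capitals lie opposite Bcl3 exons. The first 55 of them lie opposite Bcl3 coding sequence, at chr7:19809609-19809663, and the other 106, at chr7:19811767-19811872, opposite an exon of a Bcl3 transcript that does not code for protein at that place.
Gm16175 transcript: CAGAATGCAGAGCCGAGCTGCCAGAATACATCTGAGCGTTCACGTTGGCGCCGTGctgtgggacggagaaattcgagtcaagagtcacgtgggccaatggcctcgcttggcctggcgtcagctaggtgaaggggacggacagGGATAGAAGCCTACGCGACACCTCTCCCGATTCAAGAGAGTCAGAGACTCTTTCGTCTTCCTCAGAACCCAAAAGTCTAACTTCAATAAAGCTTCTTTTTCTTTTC

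Of the genes concerned, 2 carried matches to the kB consensus, the DNA motif that NF-kB dimers recognise, close to an annotated start. The RefSeq promoter table for GRCm38.p6 covers Nfkb2, Bcl3, Map3k14 and Psd, in windows of 300 bases that end 50 bases after a start, and all windows were searched on both strands. The 3 windows of Nfkb2 held 5 matches in 4 places, counted once where windows overlap, with 2 matches shifted by 1 base against each other, and the window of Bcl3 held 1. Map3k14 (1 window) and Psd (2 windows) held none of this strict form, though a looser kB pattern, found in 50.8% of all windows, matched in the Map3k14 window and in 1 of the Psd windows. Across all 32851 windows in the table, 4.51% held a strict match. The 30 bases around each place are printed on the strand of the gene, with the match in capitals, since these are the genes opposite the 2 rows with the higher counts. A match is a string of letters and does not show binding.
Nfkb2, chr19:46304689-46304718, plus strand: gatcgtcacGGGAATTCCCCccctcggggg
Nfkb2, chr19:46304716-46304745, plus strand: ggggccgaaaGGGGCTTTCCcggctggagc
Nfkb2, chr19:46305449-46305478, plus strand: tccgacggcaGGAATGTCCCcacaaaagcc
Nfkb2, chr19:46305695-46305724, plus strand: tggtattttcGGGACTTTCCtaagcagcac
Bcl3, chr7:19822734-19822763, minus strand: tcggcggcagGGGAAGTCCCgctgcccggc

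The libraries held 758394 to 911686 counted fragments in NT3 loaded limbs, 775531 to 961382 in NT3 non-loaded limbs, 852831 to 1064391 in Ctrl loaded limbs and 897909 to 998031 in Ctrl non-loaded limbs. The cortical bone label was checked with osteoblast and osteocyte marker rows. Col1a1, Col1a2, Ibsp, Runx2, Spp1, Dmp1, Sost, Mepe and Phex had fragments in every library, while Sp7 and Alpl were at 0 in some. Bglap and Pdpn were at 0 in all NT3 non-loaded libraries, and Fgf23 held 1 fragment in all 16. CPM here are counts per 1e+06 fragments, scaled by TMM. The 8 osteoblast rows summed to 517 to 772 CPM in NT3 loaded and 361 to 522 in NT3 non-loaded libraries. In Ctrl they summed to 621 to 963 in loaded and 203 to 456 in non-loaded libraries. The 6 osteocyte rows summed to 136 to 271 CPM in NT3 loaded and 134 to 255 in NT3 non-loaded libraries. In Ctrl these summed to 221 to 304 in loaded and 188 to 262 in non-loaded libraries. Of the matched rows averaging at least 100 fragments, 88.0% lay opposite an exon of another gene, against 15.3% of the remaining rows, and Psd, which averaged 125 fragments, is one such row. Some rows named for marker genes were low beside a high row opposite. Mpo averaged 4.94 fragments and Gm11505, opposite it, 3381, and Ckm averaged 4.81 against 1205 for A930016O22Rik. Other pairs went the other way, such as Csf1r at 131 and Hmgxb3, opposite it, at 21.3. Whether a low row reflects little RNA of the gene it is named for was not tested. In bulk bone, fewer cells of a type and less RNA per cell cannot be told apart.

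Map3k14, the gene of NIK itself, was counted with few fragments in every library. NT3 loaded limbs had 2, 9, 7 and 2 fragments and NT3 non-loaded limbs 1, 7, 5 and 5, against 1, 7, 3 and 4 in Ctrl loaded limbs and 4, 4, 1 and 1 in Ctrl non-loaded limbs. The groups overlapped in both limbs, and the 2 fragments of NT3 mice 1 and 4 in the loaded limb lay within the Ctrl range. Once scaled by TMM, 3 NT3 libraries in non-loaded and 2 in loaded limbs lay above all Ctrl libraries. Over both limbs the NT3 mice held 38 fragments and the Ctrl mice 25, a ratio per counted fragment of 1.70 whose 95% interval, for counting error only, ran from 1.00 to 2.94. Per 1e+06 counted fragments the mice averaged 5.82 ± 3.57 in NT3 and 3.29 ± 1.54 in Ctrl (SD, n = 4 each), a difference within the spread between mice (exact two-sided permutation p = 0.257). The row fell below the filter for low counts. In an edgeR quasi-likelihood fit without the filter its log2 change over both limbs was 0.73 (SE 0.54, Benjamini-Hochberg adjusted p = 0.654). It was 0.37 without NT3 mouse 2 and 1.11 without Ctrl mouse 2. No label states whether the NT3 allele adds fragments to this row, and the counts do not check the genotype labels.

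The row of Relb, which encodes the partner of p52, was close to empty. NT3 loaded limbs had 0, 2, 0 and 1 fragments and NT3 non-loaded limbs 1, 0, 1 and 0, against 0, 0, 1 and 0 in Ctrl loaded limbs and 1, 0, 0 and 1 in Ctrl non-loaded limbs. These 8 fragments in 16 libraries allow no fold change. The 5 fragments in NT3 and 3 in Ctrl gave a counting ratio of 1.87 with an interval of 0.363 to 12.03, and the mice did not differ beyond their spread (exact permutation p = 0.114). Unlike Nfkb2 and Bcl3, neither Relb nor Map3k14 shared at least 20 exon bases with a gene on the other strand, so there was no opposite row to describe.

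The Nfkb2 row, named for the p100 precursor, passed no test between genotypes, where edgeR called 2.65% of 6080 rows tested in loaded limbs, 0.579% of 6220 in non-loaded limbs and 1.98% of 8626 with limbs summed. NT3 loaded limbs had 8, 9, 12 and 21 fragments, against 15, 9, 10 and 22 in Ctrl loaded limbs. NT3 non-loaded limbs had 17, 15, 12 and 14, against 12, 15, 10 and 12 in Ctrl non-loaded limbs. Once scaled by TMM, 1 NT3 library in each limb lay above all Ctrl libraries, and the groups otherwise overlapped. The NT3 to Ctrl log2 change was 0.02 in loaded limbs (SE 0.43, edgeR quasi-likelihood adjusted p = 0.995) and 0.26 in non-loaded limbs (SE 0.36, adjusted p = 0.932). With the limbs of a mouse summed it was 0.15 (SE 0.27, adjusted p = 0.928), with a 95% interval of -0.39 to 0.69. The non-loaded values per 1e+06 fragments, 16.6 ± 0.907 in NT3 and 13.0 ± 2.66 in Ctrl (SD, n = 4 each), came nearest to a difference, with an exact permutation p of 0.0571 where 0.0286 is the smallest that 4 against 4 can give. Of 15 such permutation tests over Map3k14, Nfkb2 and Relb, 0 gave a p under 0.05. An unadjusted p under 0.05 came from edgeR for none of the 3 rows either.

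**Figure D2:**
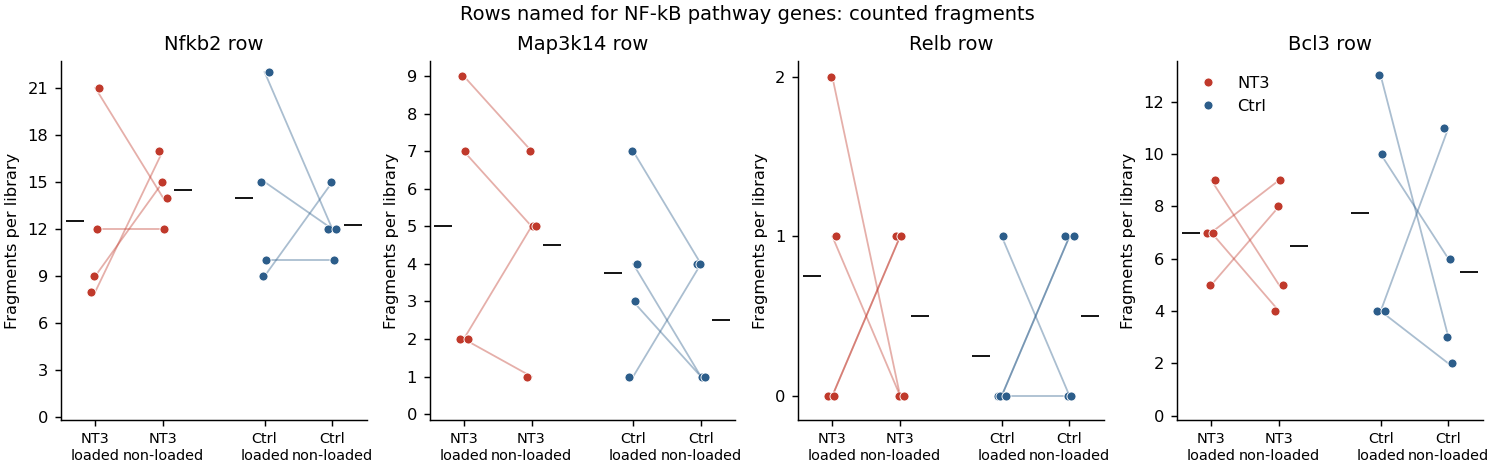
Counted fragments per library (vertical axes) for the Nfkb2, Map3k14, Relb and Bcl3 rows in NT3 (red) and Ctrl (blue) tibiae, with a line joining the limbs of a mouse and a black bar at each group mean. The genotypes overlap in each panel, from 8 to 22 fragments for Nfkb2 down to 0 to 2 for Relb.

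The Psd row, opposite Nfkb2, was the best counted of the 5 and separated the genotypes in both limbs. NT3 loaded limbs had 187, 142, 171 and 181 fragments, against 87, 98, 73 and 80 in Ctrl loaded limbs. NT3 non-loaded limbs had 160, 159, 150 and 149, against 97, 59, 97 and 108 in Ctrl non-loaded limbs. The lowest NT3 library stood above the highest Ctrl library in each limb. That pattern was part of why the row was chosen, and the share of all rows that part in this way is not given here. Scaled by TMM, Psd had 212 ± 23.5 CPM in NT3 loaded and 93.5 ± 5.21 in Ctrl loaded limbs (SD, n = 4 each), a log2 difference of 1.18 (SE 0.15). The non-loaded values were 171 ± 14.2 CPM in NT3 and 96.2 ± 20.4 in Ctrl, a log2 difference of 0.81 (SE 0.18). Summed over limbs, the NT3 mice were 1.99-fold higher (log2 0.99, SE 0.13). For reference, 1.32% of the 6080 rows tested in loaded limbs and 0.418% of the 6220 in non-loaded limbs were called higher in NT3 at an edgeR adjusted p under 0.05. With the limbs summed the share was 1.14% of 8626.

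The spread of Psd between mice was near what counting alone gives in some groups and not in others. Its SD was 1.44 times the counting error in NT3 loaded, 1.03 times in NT3 non-loaded, 0.509 times in Ctrl loaded and 2.01 times in Ctrl non-loaded libraries. The last value rests on Ctrl mouse 2, whose non-loaded limb had 59 fragments (66.2 CPM, against 102 to 111 in the other Ctrl non-loaded limbs). Without that mouse the non-loaded log2 difference was 0.68, the lowest of the values with 1 mouse left out, which reached 0.91.

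The Gm16175 row, opposite Bcl3, separated the genotypes in loaded limbs and overlapped in non-loaded limbs. This pattern too was part of its choice, and the share of all rows that part in loaded limbs is not given here. NT3 loaded limbs had 39, 36, 47 and 42 fragments, against 17, 20, 6 and 25 in Ctrl loaded limbs. NT3 non-loaded limbs had 22, 23, 32 and 25, against 26, 9, 21 and 16 in Ctrl non-loaded limbs. In non-loaded limbs NT3 mouse 3 alone lay above all Ctrl libraries once scaled. In CPM the loaded values were 51.4 ± 8.55 in NT3 and 18.4 ± 8.12 in Ctrl (SD, n = 4 each), a log2 difference of 1.45 (SE 0.30). The non-loaded values were 28.5 ± 7.74 CPM in NT3 and 19.4 ± 8.45 in Ctrl, a log2 difference of 0.54 (SE 0.33). That non-loaded difference fell to 0.34 without NT3 mouse 3, to 0.33 without Ctrl mouse 2, and was 0.83 without Ctrl mouse 1. Over both limbs NT3 mice were 2.05-fold higher (log2 1.03, SE 0.22).

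**Figure D3:**
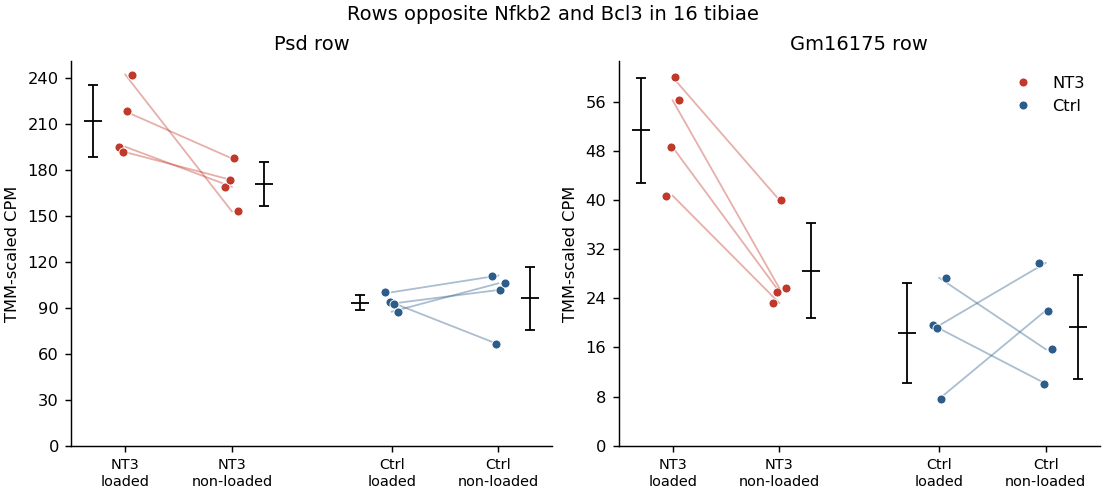
TMM-scaled CPM of the Psd and Gm16175 rows in each library of NT3 (red) and Ctrl (blue) mice, loaded and non-loaded limbs side by side and joined by mouse, with the mean and SD of 4 libraries in black. For Psd the NT3 libraries lie at 153 CPM or more and the Ctrl libraries at 111 or less. For Gm16175 the genotypes part in loaded limbs, with the lowest NT3 library at 40.7 CPM and the highest Ctrl library at 27.3.

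In the rows named for the genes opposite, Bcl3 and Nfkb2, the genotypes overlapped. Bcl3 had 7, 5, 7 and 9 fragments in NT3 loaded limbs and 4, 8, 9 and 5 in NT3 non-loaded limbs, against 4, 13, 10 and 4 in Ctrl loaded limbs and 11, 3, 6 and 2 in Ctrl non-loaded limbs. Over both limbs it had 54 fragments in NT3 and 53 in Ctrl, a counting ratio of 1.14 (95% interval 0.767 to 1.70). For Nfkb2 the same ratio was 1.15 (0.873 to 1.52). Within a library, where scaling plays no part, Psd took 93.2 ± 2.64% of the fragments of the Psd and Nfkb2 rows together in NT3 loaded and 85.8 ± 5.56% in Ctrl loaded limbs (SD, n = 4 each). In non-loaded limbs it took 91.4 ± 0.899% in NT3 and 87.3 ± 5.12% in Ctrl. The Gm16175 share of Gm16175 plus Bcl3 was 85.5 ± 2.46% in NT3 loaded and 66.3 ± 22.2% in Ctrl loaded limbs. In non-loaded limbs it was 80.0 ± 4.83% in NT3 and 78.0 ± 7.90% in Ctrl.

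Per length, the order of the levels was Gm16175, Psd, Nfkb2, Bcl3, Map3k14 and Relb. Averaged over the 16 libraries, CPM per kb of row length was 119 for Gm16175, 36.6 for Psd, 4.62 for Nfkb2, 3.10 for Bcl3, 0.697 for Map3k14 and 0.157 for Relb. The Psd row thus held 7.90 times as many fragments per base as the Nfkb2 row, and the Gm16175 row 37.9 times as many as the Bcl3 row. In fragments per library, without regard to length, Psd averaged more than 97.8% of all rows, Gm16175 more than 92.5%, Nfkb2 more than 88.9%, Map3k14 more than 80.3% and Relb more than 58.9%.

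With loading, Psd and Gm16175 were higher in the loaded limb of every NT3 mouse and of some Ctrl mice. Their pattern over the 4 groups entered their choice, so these values are descriptions too, and no p is given. In NT3 mice Psd had a loading log2 change of 0.31 (SE 0.15), higher in 4 of 4 mice, which fell to 0.18 without NT3 mouse 4. Gm16175 had 0.86 (SE 0.29) in NT3 mice, again higher in 4 of 4. In Ctrl mice the loaded limb was higher for Psd in 1 of 4 mice (log2 -0.02, SE 0.16; 2 of 4 mice without TMM scaling) and for Gm16175 in 2 of 4 (log2 -0.05, SE 0.34). For reference, edgeR called 0.417% of 7192 rows for loading in NT3, 4.07% in Ctrl and 0.139% for the difference between the genotypes.

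The difference between the NT3 and Ctrl loading values was 0.34 (SE 0.22) on the log2 scale for Psd and 0.91 (SE 0.45) for Gm16175. Single mice moved both. The Psd difference was 0.19 without NT3 mouse 4 and 0.50 without Ctrl mouse 2. The Gm16175 difference was 0.54 without Ctrl mouse 3 and 1.22 without Ctrl mouse 4.

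Nfkb2 was not called for loading, with a log2 change of -0.07 in NT3 (edgeR quasi-likelihood with mouse as a block, adjusted p = 0.990) and 0.20 in Ctrl (adjusted p = 0.882). Its loaded limb was higher in 2 of 4 NT3 mice and 3 of 4 Ctrl mice. Map3k14 was higher in the loaded limb of 3 of 4 mice of each genotype, with log2 changes of 0.27 in NT3 and 0.56 in Ctrl in the fit without the filter. With 4 mice the smallest p from exchanging the limbs is 0.125, and for Nfkb2, Map3k14 and Relb the exact p lay between 0.5 and 1.

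**Figure D4:**
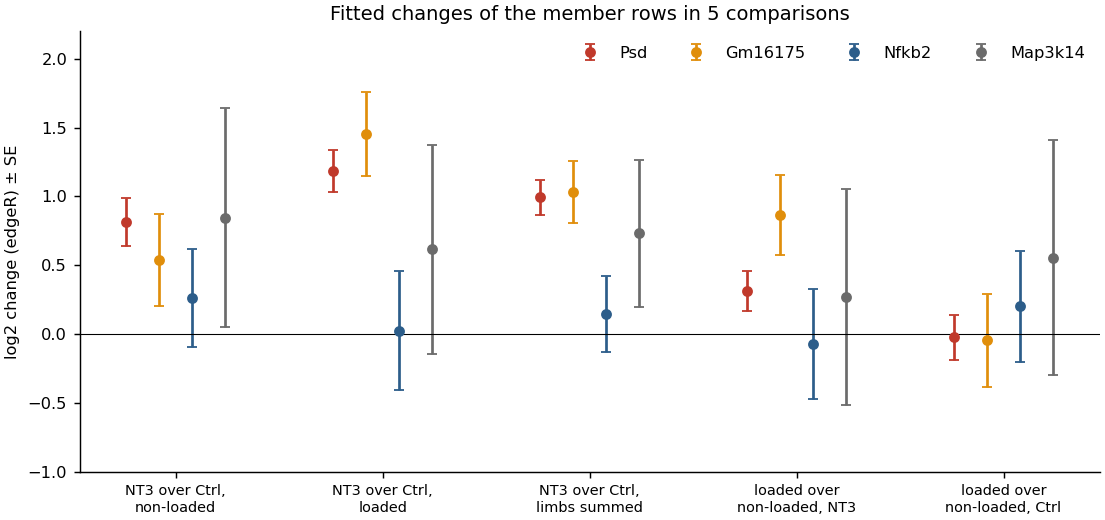
Fitted edgeR log2 changes (vertical axis, with SE bars) of the Psd, Gm16175, Nfkb2 and Map3k14 rows in 5 comparisons, NT3 over Ctrl on the left and loaded over non-loaded on the right. Psd reads 0.81 to 1.18 and Gm16175 0.54 to 1.45 for genotype, while Nfkb2 reads 0.02 to 0.26 and Map3k14 has bars of 0.54 to 0.85. The Map3k14 values come from the fit without a filter on low counts.

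Of the well-counted rows near the members, 1 was called for genotype, in loaded limbs only. Over all rows tested, edgeR called 2.65% in loaded limbs, 0.579% in non-loaded limbs and 1.98% with the limbs summed. Within 100 kb of Psd, 3 of 12 other rows averaged at least 20 fragments: Gm16726 opposite Gbf1, Cuedc2 opposite Fbxl15 and Gm26792, and Gm26792 opposite Cuedc2. Their genotype log2 changes ran from -0.22 to 0.27, and edgeR called none. The Gm16726 row rose with loading in Ctrl by 0.48 (edgeR adjusted p = 0.0288). Beside Gm16175, Gm20512, opposite Nectin2 and Tomm40, had 0.34 in loaded and 0.46 in non-loaded limbs and was not called (edgeR adjusted p = 0.622 and 0.580). Near Map3k14, 1 of 6 such rows was called for genotype: Gm20511, opposite the formin gene Fmnl1, was higher in loaded NT3 limbs by 0.71 (edgeR adjusted p = 0.0131). In non-loaded limbs it had 0.20 (edgeR adjusted p = 0.905), and with the limbs summed 0.44 (edgeR adjusted p = 0.157). Near Relb, Zfp296, opposite Gemin7, had 0.27 in loaded and 0.38 in non-loaded limbs and was not called (edgeR adjusted p = 0.780 and 0.860).

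**Figure D5:**
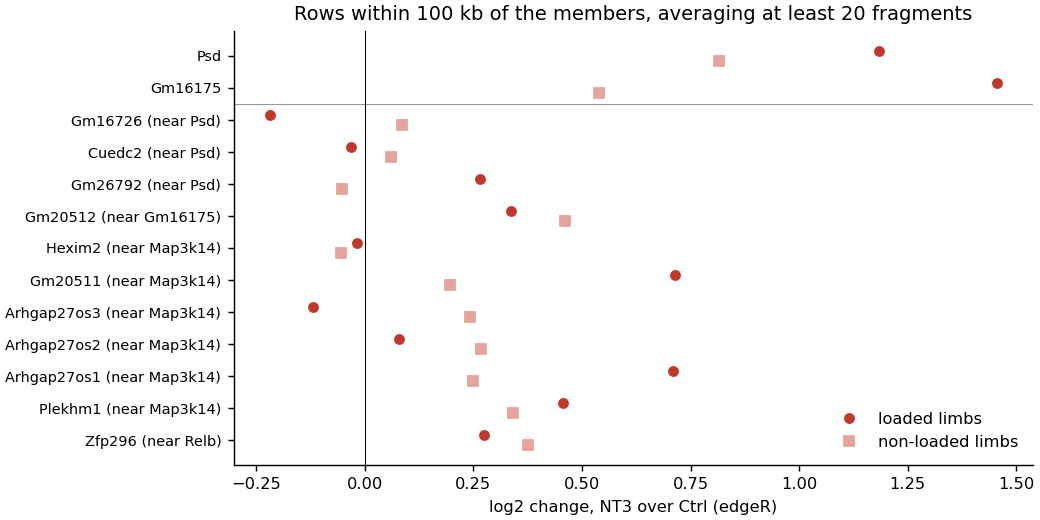
Genotype log2 changes (NT3 over Ctrl, horizontal axis) in loaded limbs (dark circles) and non-loaded limbs (pale squares) for Psd, Gm16175 and the 11 rows within 100 kb of a member that averaged at least 20 fragments. Psd lies at 0.81 and 1.18, and Gm16175 at 0.54 and 1.45. The neighbours lie between -0.22 and 0.71.

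The rows named for other genes of the pathway were mostly too low to test. Of 47 pathway genes looked up by row name, 4 passed the filter in loaded limbs, 5 in non-loaded limbs and 12 with the limbs summed. Of these, edgeR called 0 in each comparison, as it did of the 8 tested for loading. Over all rows tested, it called 2.65% in loaded limbs, 0.579% in non-loaded limbs and 1.98% with the limbs summed. For loading the shares were 0.417% in NT3 and 4.07% in Ctrl. With so few rows tested, 0 calls does not set these genes apart from all rows. In the core of the pathway the mean per library was 0.375 fragments for Traf3 and 0.5 for Traf2, the adaptors that hold NIK down. Birc2 and Birc3, the cIAP ligases, had 1.63 and 1.56, and Chuk, the kinase IKKalpha, had 1.00. Among the receptors, Cd40 was at 0 in all 16 libraries, and Ltbr, Tnfrsf13c and Tnfrsf11a (RANK) averaged at most 0.625. Only Cd27 of the 7 receptor rows was tested, at 29 to 58 fragments (log2 0.53 in loaded and 0.06 in non-loaded limbs, edgeR adjusted p = 0.309 and 0.982). The RANK ligand row Tnfsf11 held 1 fragment at most.

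In the canonical arm, the row of Ikbkg, the gene of the scaffold subunit NEMO, lies opposite G6pdx. It was well counted at 106 to 230 fragments and did not pass (log2 0.26 in loaded and 0.06 in non-loaded limbs, edgeR adjusted p = 0.575 and 0.971). The rows of Nfkb1, Rela and Rel averaged 3.00, 2.69 and 3.56 fragments. Of the feedback regulators, Tnip1 had -0.40 in loaded and -0.44 in non-loaded limbs (edgeR adjusted p = 0.647 and 0.745), and Tnfaip3, which encodes A20, averaged 2.06 fragments.

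Looked up by the gene opposite, the same 47 genes led to 6 rows, of which 5 were tested. Among these were Psd and Gm16175 themselves, whose differences entered the choice and are given above as descriptions. The other tested rows were not called for genotype. Sirt2, opposite the IkB-beta gene Nfkbib, had 0.49 in loaded and 0.53 in non-loaded limbs (edgeR adjusted p = 0.868 and 0.895). G6pdx, opposite Ikbkg, had 0.11 and -0.07 (adjusted p = 0.951 and 0.988). Gm43109, opposite Vcam1, an adhesion gene known as an NF-kB target, averaged 488 fragments, the most of any of these rows. It had 0.12 in loaded and -0.15 in non-loaded limbs (edgeR adjusted p = 0.825 and 0.932), and it fell with loading in Ctrl by 0.52 (adjusted p = 0.0102).

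The 5 rows most like Psd across the 16 libraries each lay opposite another gene. Pearson's r of log2 CPM, computed against 4114 rows averaging at least 20 fragments, was 0.964 for D030025P21Rik, opposite the TGF-beta binding protein gene Ltbp2, and 0.940 for Tbc1d17, opposite Akt1s1 and the amino acid oxidase gene Il4i1. It was 0.930 for Zmynd15, opposite the chemokine gene Cxcl16, 0.923 for Dexi, opposite the MHC class II regulator gene Ciita, and 0.919 for Gm11131, opposite the class I gene H2-Q4. The libraries share genotype groups, limbs of 1 mouse and depth, so these values describe likeness only. Genotype log2 changes of these rows ran from 0.73 to 2.00 in loaded and 0.54 to 1.90 in non-loaded limbs. As Psd was chosen for its genotype pattern, a genotype difference shared with it was built into the ranking. After group means were removed, r was 0.795 for D030025P21Rik, 0.720 for Tbc1d17, 0.338 for Zmynd15, 0.472 for Dexi and 0.682 for Gm11131.

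Gm16175 had its highest values with Prickle3, opposite Plp2 (r = 0.864), Dnah17, opposite Gm11738 and Pgs1 (0.846), Gm44264, opposite Eefsec (0.837), Psd (0.830), and Zfp652, opposite Abi3 and Zfp652os (0.828). Less the group means, its r with Psd was 0.543. Prickle3 and Gm44264 had genotype log2 changes of 0.60 and 0.61 in loaded limbs and 0.18 and 0.20 in non-loaded limbs. Dnah17 and Zfp652 had 0.24 and 0.55 in loaded limbs and 0.15 and 0.47 in non-loaded limbs. All these rows were chosen for their likeness to Gm16175 in the same libraries. A pattern shared with it over the groups was therefore built into the choice. The differences between limbs were not tested.

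Beside Psd and Gm16175, some rows opposite marker genes of lymphoid and antigen-presenting cells differed between genotypes. No row opposite a listed osteoblast, granulocyte, macrophage, erythroid or skeletal muscle gene was called for genotype. The marrow of this bone had been flushed out by centrifugation. Of the rows named for such genes, edgeR called only Cd72 for genotype, in non-loaded limbs. The 4 rows opposite 3 of 8 B lymphoid genes, Cd22, Cd72 and Pax5, summed to 411 to 669 CPM in NT3 loaded and 160 to 213 in Ctrl loaded limbs. In non-loaded limbs they summed to 433 to 692 in NT3 and 196 to 371 in Ctrl. By row name, the 8 B lymphoid rows summed to 286 to 329 CPM in NT3 loaded and 272 to 371 in Ctrl loaded limbs, which overlapped, and to 281 to 352 in NT3 non-loaded and 209 to 234 in Ctrl non-loaded limbs, which did not. That sum is mostly the Cd72 row, which lies opposite Tesk1 and averaged 229 fragments. Its genotype log2 changes were -0.06 in loaded and 0.62 in non-loaded limbs (edgeR adjusted p = 0.917 and 0.0460). The other B lymphoid row tested, Cd79a, had 0.26 and -0.08 there (edgeR adjusted p = 0.873 and 0.983). The remaining 6 rows averaged 0.438 to 7.25 fragments. Of the defining markers, Cd79b was at 0 in all NT3 loaded and all Ctrl loaded libraries. Ms4a1 was at 0 in all NT3 non-loaded and all Ctrl loaded libraries.

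For antigen-presenting cells the row opposite Ciita and the rows by name went different ways. Dexi, opposite Ciita, had 165 to 219 CPM in NT3 loaded and 52.1 to 69.7 in Ctrl loaded limbs, and 167 to 231 in NT3 non-loaded and 57.6 to 93.2 in Ctrl non-loaded limbs. The Ciita row itself had genotype log2 changes of -0.45 in loaded and -0.28 in non-loaded limbs (edgeR adjusted p = 0.636 and 0.926). The 6 rows by name overlapped, at 31.3 to 49.8 CPM in NT3 loaded and 29.9 to 60.1 in Ctrl loaded limbs, and at 34.9 to 46.9 in NT3 non-loaded and 24.04 to 50.04 in Ctrl non-loaded limbs.

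Among the other marker sums by row name, the osteoclast and endothelial sums parted the genotypes in 1 limb each. Both rest on low rows. The 5 osteoclast rows summed to 19.6 to 35.9 CPM in NT3 non-loaded and 7.33 to 18.3 in Ctrl non-loaded limbs, and overlapped in loaded limbs at 8.35 to 27.0 in NT3 and 5.73 to 16.1 in Ctrl. The 4 endothelial rows summed to 25.4 to 32.3 CPM in NT3 loaded and 9.21 to 23.9 in Ctrl loaded limbs, and overlapped in non-loaded limbs at 12.5 to 26.7 in NT3 and 13.5 to 32.1 in Ctrl. The 6 macrophage rows overlapped in both limbs, as did the osteoblast, osteocyte, T lymphoid, granulocyte, erythroid and skeletal muscle sums. How many sums or rows would part by chance was not tested. The T lymphoid rows stayed at 20.1 CPM or below in all libraries, with Cd3g at 0 throughout. What part these cells had in the Psd and Gm16175 values was not tested.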

How the data were processed

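Ribo-depleted total RNA of 16 tibiae was read single-end for 75 bases from random-primed libraries (mean RNA integrity number 5.4), per the labels' protocols. The submitters' processing notes name the mm10 build, the aligner STAR 2.4.2a, featureCounts 1.4.6 from Subread for counting, and DESeq2. The deposited values are whole-number fragment counts per row, with a row length in bases. The sources used here give neither annotation release nor strand setting. GENCODE M21 held 45250 of the 47517 row names as symbols and 611 as older symbols. A row counts as opposite a gene if exons on the facing strands share at least 20 bases.

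From the counts, rows were filtered with filterByExpr (minimum count 10), TMM-scaled and put through robust edgeR 4.0.16 quasi-likelihood F tests (R 4.3.3, limma 3.58.1), adjusted by Benjamini-Hochberg over all rows tested and called at an adjusted p under 0.05. Genotype was tested in 8 libraries per limb and with the limbs of a mouse summed, loading and its difference in all 16 with mouse as a block. Map3k14, Nfkb2 and Relb were also tested by exact permutation of fragments per 1e+06. The main test was checked on simulated data. Alternatives were DESeq2 1.42.0, upper-quartile scaling, no filter, library sizes without 186 ribosomal RNA and repeat rows, each mouse left out, no mouse block, and a 200-base overlap.

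The pairing comes from the design text, which pairs the limbs of each mouse. Deviations from group means correlated within mice at 0.0441 to 0.171, and for Ctrl mouse 4 another mouse gave more (0.143). P values cover the spread between 4 mice a group, and counting intervals cover counting error only. Psd, Nfkb2 and Gm16175 passed the filter in all 6 comparisons, Map3k14 and Relb in none. Named rows were the 5 members, the Bcl3 row, rows within 100 kb averaging at least 20 fragments, the 5 rows most like Psd and Gm16175, and pathway and marker lists. The members and lists were chosen with earlier results of these data known.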

Additional observations from a re-analysis of the deposited data

Results flagged for a closer look

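Among 24 groups of 4 libraries looked at (the 5 members and Bcl3 in 4 groups), 2 held a library far from the other 3, and chance gives about 1 such group in 20. In NT3 non-loaded limbs, Gm16175 had 40.0 CPM (32 fragments) in mouse 3, against 23.2 to 25.7 CPM in the other 3 mice. The same mouse had the highest Gm16175 value among NT3 loaded limbs, 60.0 CPM. In Ctrl loaded limbs, Relb had 1.27 CPM in mouse 3, which is 1 fragment against 0 in the other 3.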

How the results depend on the processing

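Genotype log2 differences kept their sign for Psd (1.11 to 1.23 loaded, 0.68 to 0.91 non-loaded, 0.93 to 1.06 summed) and Gm16175 (1.22 to 1.70, 0.33 to 0.83 and 0.90 to 1.19) under the 12 alternatives run. No alternative gave a Nfkb2 or Map3k14 value past the threshold. Signs turned only for Nfkb2 in loaded limbs and for some loading values. Nfkb2 in loaded limbs read -0.01 (-0.00523) with no filter and -0.40 to 0.31 with a mouse left out. Leaving out a mouse gave, for loading in NT3, -0.50 to 0.24 for Nfkb2. For loading in Ctrl it gave -0.19 to 0.082 for Psd, -0.10 to 0.57 for Nfkb2 and -0.35 to 0.32 for Gm16175. For the difference in loading effect it gave -0.72 to 0.038 for Nfkb2 and -0.99 to 0.081 for Map3k14. The cause was not tested.

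Counts of called rows moved more. The non-loaded genotype count of 36 was 71 with no filter and 12 to 77 with a mouse left out (14 without NT3 mouse 3, 12, 20 and 77 without Ctrl mouse 2, 3 and 1). The summed count of 171 ran from 88 to 209 (88 without NT3 mouse 3, 91 without Ctrl mouse 2). Loading in NT3 called 30 rows, 19 with DESeq2 and 17 to 44 with a mouse left out (17 without NT3 mouse 1). Loading in Ctrl called 293 rows, 169 with DESeq2 and 163 to 325 with a mouse left out (163 and 188 without Ctrl mouse 2 and 3). Without the replicate block for mouse these loading counts were 5 and 171, and the difference in loading effect went to 0 by edgeR (335 at unadjusted p under 0.05), against 10 by edgeR and 10 by DESeq2 with the block. That difference called 17 rows with no filter and 7 to 14 with a mouse left out. Nfkb2 was not called for loading with or without the block. With a 200-base overlap, 2 members lay opposite a gene in place of 3, since Gm16175 shares 161 bases. Map3k14 genotype values with a mouse left out ran from 0.13 to 0.98 in loaded limbs, 0.57 to 1.21 in non-loaded limbs and 0.37 to 1.11 summed. Map3k14 and Relb rest on 1 to 9 and 0 to 2 fragments per library, and their counting intervals limit what can be said of them.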
